A study of Homo sapiens with 4 samples.

Results

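The data describe 10 target genes of the Wnt pathway and genes of intestinal stem cells in SW480 and SW620 cells with and without knockdown of SHMT2. The 10 genes are AXIN2, NKD1, NOTUM, RNF43, ZNRF3, LGR5, ASCL2, MYC, TCF7 and LEF1. They were chosen by symbol, as direct targets of β-catenin and TCF factors or as markers of crypt stem cells, and all 10 were found among the 26364 rows of the count table. RNA was sequenced in 4 libraries, 1 of SHMT2-knockdown cells and 1 of control cells for each line. The lines were grown from human colorectal cancers: SW480 from a primary tumor and SW620 from a lymph node metastasis of the same patient, and both carry a truncated APC. SHMT2 is the mitochondrial serine hydroxymethyltransferase, which turns serine into glycine and charges folate with a one-carbon unit. In the study's system, doxycycline switches on an shRNA against SHMT2 in stably transduced cells. The labels name the other cells only as control, and the study's text speaks of control shRNA cells. Whether the controls received doxycycline, and which hairpin was sequenced, is not given in the sources used here. Each line was present once per condition, so the 2 lines stand in for replicates of the knockdown and no line has a replicate of its own.

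In the canonical Wnt pathway, a complex of APC, AXIN and the kinases GSK3 and CK1 marks β-catenin for degradation. Where APC is truncated, β-catenin escapes, enters the nucleus and binds TCF/LEF factors on target genes. Many of these targets act back on the pathway, and others keep the stem cells at the base of the intestinal crypt in their state. In colorectal cancer the pathway is active in most tumors, through APC in the majority.

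SHMT2, the targeted gene, had 2661 counts in control SW480 cells and 205 after knockdown. In SW620 the counts were 3751 and 640. With both lines in the fit, the log2 change was -3.54 (SE 0.12, adjusted p = 1.06e-167 by edgeR's quasi-likelihood test), which matches the labels. The library totals were 9590550 (control) and 6432779 (knockdown) for SW480, and 5530129 and 13774288 for SW620. Knockdown depth was thus 0.671 times the control in SW480 and 2.49 times in SW620. Levels are given in CPM, counts scaled to a common library size after TMM. A level of 3 counts, taken as the floor where a gene had 0, was 0.312 and 0.453 CPM in SW480 and 0.55 and 0.223 CPM in SW620, control first. Among 10 markers of colon epithelium, KRT8, KRT18 and EPCAM were abundant, and the summed level was 4258 to 9827 CPM. Most of that sum was KRT8 and KRT18, at 3427 and 1929 of 5736 CPM in control SW480 cells. CDH1 had 557 to 1956 counts and CDX2 had 54 to 180. KRT20 had only 1 to 15 counts, LGALS4 0 to 8 and CDH17 0 to 25, and CDX1 was at 0 in all 4 libraries. VIL1, the villin of the brush border, had 1 to 2 counts in SW480 and 2029 to 5105 in SW620. The summed levels of 6 fibroblast, 6 leukocyte and 4 endothelial markers were 20.4 to 30.4, 5.20 to 12.2 and 0.733 to 2.41 CPM. The fibroblast sum hides genes that moved with the line. LUM, a collagen-binding proteoglycan, had 0 counts in both SW480 libraries and 107 and 313 in SW620, at least 120-fold higher, and COL1A1 was lower in SW620 (log2 -1.66, 21.1 and 19.6 CPM against 6.42 and 6.39 CPM). The part of these genes in the differences between the lines was not tested. PTPRC, which defines leukocytes, had 0 to 2 counts. In bulk RNA, fewer cells with a transcript and less of it in each cell cannot be told apart.

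The first comparison was between the lines, with the treatment held in the model. For every one of the 10 genes but MYC, the fitted log2 difference between the lines was larger in size than the fitted change on knockdown. For MYC these were 0.04 and -0.05. Larger differences between the lines were general. At an adjusted p under 0.05, 8926 of the 14024 tested genes were called between the lines and 233 on knockdown. At an adjusted p under 0.05, 8 of the 10 genes were higher in SW620 (AXIN2, NKD1, NOTUM, ZNRF3, LGR5, ASCL2, TCF7 and LEF1), RNF43 was lower, and MYC did not pass. Of the 14024 genes tested, 32.3% were higher in SW620 and 31.3% were lower, so a call by itself was common. LGR5, ASCL2 and LEF1 passed the filter of 10 counts in 2 libraries through SW620 alone, where they are high, so they had to differ and their calls and fitted sizes are no support. The other 7 had at least 10 counts in a library of each line, as did 12435 of the tested genes. Among these 7, 5 were higher in SW620 and 1 was lower, and among the 12435 genes 31.2% were higher and 28.2% lower. A log2 difference of 3 or more in favor of SW620 was found in 3 of the 7 (AXIN2, NKD1 and NOTUM) and in 1.04% of the 12435 genes. Each line entered with 1 culture per condition, so no spread between replicates of a line enters these P values. They rest on how far the lines disagreed in their change on knockdown, pooled over genes, which may be technical.

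**Figure D1:**
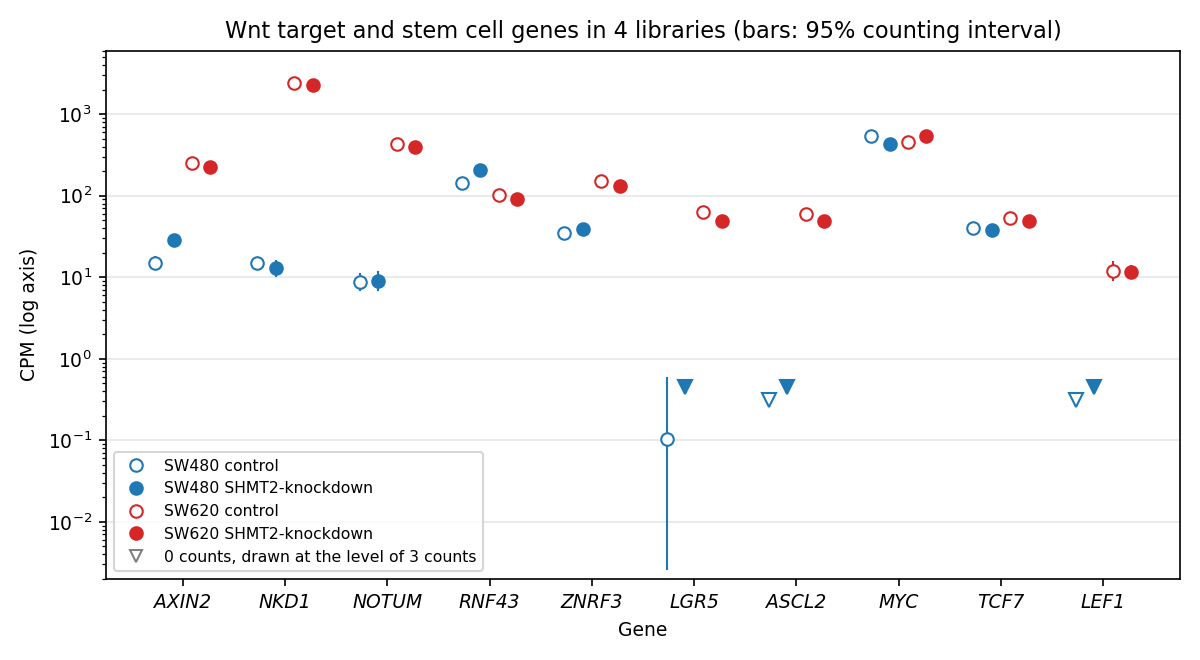
Level of each gene in CPM on a log axis, with the 4 libraries side by side (open, control; filled, SHMT2-knockdown; blue, SW480; red, SW620), 95% counting intervals as bars and triangles for libraries with 0 counts, drawn at the level of 3 counts. The 2 SW620 points lie above both SW480 points for 8 of the 10 genes, below them for RNF43, and among them for MYC.

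AXIN2 encodes a scaffold of the destruction complex and is the standard readout of β-catenin activity. It lies on chromosome 17 (65528563 to 65561647, minus strand; positions here and below are those of GENCODE 29 on GRCh38). Control SW480 cells had 145 counts and knockdown SW480 cells 188. The SW620 libraries had 1368 and 3017. This was 15.1 and 28.4 CPM in SW480 against 251 and 224 CPM in SW620, with no overlap between the lines. The log2 difference was 3.50 (SE 0.14, adjusted p = 3.71e-136 by edgeR), the 580th highest of 14024. Between the control libraries the level in SW620 was 16.6 times that in SW480 (95% interval 13.99 to 19.86), and between the knockdown libraries 7.91 times (6.82 to 9.21). These intervals come from counting error only, and they do not overlap.

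NKD1, the naked cuticle protein that binds Dishevelled and restrains the signal (chromosome 16, 50548330 to 50649249), had the most counts of the 10 in SW620, though not the highest level per kilobase. Its counts were 142 in control and 85 in knockdown SW480 cells, and in SW620 they were 13086 and 30783. The levels were 14.8 and 12.8 CPM against 2399 and 2288 CPM. The gap was 162-fold between the controls (interval 138 to 193) and 178-fold between the knockdown libraries (144 to 224), and these intervals overlapped. The fitted log2 difference was 7.40 (SE 0.13), with an adjusted p too small for the software to represent.

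NOTUM is a secreted enzyme that strips the lipid from Wnt ligands and so inactivates them (chromosome 17, 81952507 to 81961840). It had 84 and 60 counts in SW480 and 2319 and 5297 counts in SW620, control first. The levels, 8.75 and 9.05 CPM against 425 and 394 CPM, did not overlap. The log2 difference was 5.53 (SE 0.15, adjusted p = 2.48e-282 by edgeR). SW480 and SW620 thus differed by 48.6-fold in the controls and 43.5-fold in the knockdown libraries for this gene.

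RNF43 and ZNRF3 are paralogous membrane ubiquitin ligases that remove Frizzled receptors from the cell surface, encoded on chromosomes 17 (58352500 to 58417595) and 22 (28883592 to 29057487). They went in opposite directions between the lines. ZNRF3 had 333 and 257 counts in SW480 (34.7 and 38.8 CPM) and 834 and 1790 in SW620 (153 and 133 CPM), a log2 difference of 1.96 (SE 0.13, adjusted p = 4.10e-47 by edgeR). RNF43 had 1380 and 1381 counts in SW480 (144 and 208 CPM) and 552 and 1222 in SW620 (101 and 90.8 CPM). Its log2 difference was -0.86 (SE 0.12, adjusted p = 4.63e-12 by edgeR). RNF43 was 1.42 times as high in SW480 as in SW620 in the controls and 2.29 times as high after knockdown. In GENCODE 29, RNF43 shares 4326 exon bases with AC004687.2 on its own strand, and it also overlaps SUPT4H1 and, on the other strand, TSPOAP1-AS1. AXIN2 shares 1316 exon bases with AC004805.1. How reads in such stretches were assigned is not given in the sources used here, so the values of both genes are uncertain to that extent.

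LGR5, the R-spondin receptor that marks crypt base stem cells (chromosome 12, 71439770 to 71586310), was near absent from SW480. It had 1 count in control and 0 in knockdown SW480 cells. In SW620 it had 343 and 659 counts, or 62.9 and 49.0 CPM. Over both conditions the ratio of SW620 to SW480 was 860, with a 95% interval of 154 to 34020 that reflects the single count. ASCL2, the transcription factor that sets the stem cell program together with β-catenin (chromosome 11, 2268495 to 2270952), had 0 counts in both SW480 libraries and 328 and 651 counts in SW620, or 60.1 and 48.4 CPM. Taken against 3 counts over both SW480 libraries, ASCL2 was at least 280-fold higher in SW620. SW620 cells therefore had RNA of both stem cell genes, and in SW480 cells neither was above the floor. The adjusted p by edgeR was 2.55e-128 for LGR5 and 2.31e-127 for ASCL2. Both genes passed the filter through SW620 alone, so these values are no support for a difference.

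TCF7 and LEF1 encode HMG-box factors of the same family that carry β-catenin on DNA. TCF7 lies on chromosome 5 (134114711 to 134151865) and LEF1 on chromosome 4 (108047545 to 108168956). LEF1 had 0 counts in both SW480 libraries and 65 and 158 in SW620 cells, or 11.9 and 11.7 CPM. It was at least 63.8-fold higher in SW620 against 3 counts over both SW480 libraries. Its adjusted p of 3.91e-32 by edgeR is no support, since LEF1 passed the filter through SW620 alone. TCF7 was present in all 4 libraries, with 382 and 252 counts in SW480 (39.8 and 38.0 CPM) and 287 and 659 in SW620 (52.6 and 49.0 CPM). Its log2 difference of 0.38 (SE 0.14) passed in edgeR (adjusted p = 0.0107) and did not pass in DESeq2 (adjusted p = 0.239). The other members of the family leaned the opposite way. TCF7L2 had 180 and 230 CPM in SW480 against 55.6 and 67.6 CPM in SW620, a log2 difference of -1.73 (SE 0.12, adjusted p = 5.92e-43 by edgeR). TCF7L1, named after its values were seen because it completes the family, had 24.0 and 25.3 CPM against 0.917 and 2.01 CPM, a log2 difference of -3.94. Per kilobase of annotated exon, the order in control SW480 cells was TCF7L2 at 26.8, TCF7L1 at 5.43 and TCF7 at 3.95 CPM per kb. In control SW620 cells it was TCF7L2 at 8.25, TCF7 at 5.23, LEF1 at 2.22 and TCF7L1 at 0.208 CPM per kb. LEF1 shares exon bases with LEF1-AS1 and TCF7 with SKP1, in both cases on the other strand, and without strand their reads cannot be told apart.

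The 250 bases before the RefSeq start sites of these 2 genes (GRCh38.p14) are shown because the factors are themselves TCF targets and differ in whether SW480 cells had any of their RNA. Each of these windows lies inside the GENCODE span of its gene, whose 5′ end is at 108168956 for LEF1 and 134114711 for TCF7. The bases before those 5′ ends were neither shown nor searched. RefSeq promoters were matched for 3 of the 10 genes, LEF1, TCF7 and RNF43, with 5 start sites in all. The sequences are written 5′ to 3′ on the strand of the gene, for LEF1 from chr4:108166302-108166551 (minus strand) and for TCF7 from chr5:134115363-134115612 and chr5:134123368-134123617 (plus strand), and the capitals mark CTTTG or its reverse complement, the core of the TCF motif.
LEF1: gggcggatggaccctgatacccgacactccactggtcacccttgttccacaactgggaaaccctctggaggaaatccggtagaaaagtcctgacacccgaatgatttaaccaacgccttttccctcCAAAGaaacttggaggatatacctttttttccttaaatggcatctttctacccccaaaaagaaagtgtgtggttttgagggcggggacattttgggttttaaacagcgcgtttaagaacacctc
TCF7, first start: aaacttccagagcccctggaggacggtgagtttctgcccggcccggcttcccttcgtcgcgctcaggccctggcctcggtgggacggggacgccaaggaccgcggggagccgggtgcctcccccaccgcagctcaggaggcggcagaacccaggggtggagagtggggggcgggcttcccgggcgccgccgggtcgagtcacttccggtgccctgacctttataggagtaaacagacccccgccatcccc
TCF7, second start: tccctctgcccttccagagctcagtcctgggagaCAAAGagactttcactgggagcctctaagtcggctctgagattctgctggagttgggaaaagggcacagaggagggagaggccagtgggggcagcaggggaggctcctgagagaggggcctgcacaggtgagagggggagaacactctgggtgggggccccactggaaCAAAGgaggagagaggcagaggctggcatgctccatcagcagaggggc
The longer TCF motif was searched as CTTTGAA and CTTTGAT on both strands, letters that contain the core. It was in 0 of the 5 windows of the 3 genes and in 5.94% of the 35116 RefSeq promoters. The core was in 4 of the 5 windows and in 42.1% of all promoters. LEF1 had 1 match, 124 bases before the start, the first TCF7 start had 0 and the second had 2, 216 and 48 bases before it. Such matches are letters in a window and not binding sites. For LEF1 and TCF7 they describe start sites inside the gene and not the bases before its annotated 5′ end.

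MYC, the transcription factor that drives growth and ribosome production, was the gene with the smallest difference between the lines. It had 5252 and 2864 counts in SW480 (547 and 432 CPM) and 2514 and 7303 in SW620 (461 and 543 CPM), so the lines overlapped. The fitted log2 difference was 0.04 (SE 0.10, adjusted p = 0.73 by edgeR). The order of the lines turned with the condition. In the controls the SW620 level was 0.843 times the SW480 level (95% counting interval 0.803 to 0.884), and in the knockdown libraries it was 1.26 times (1.20 to 1.31).

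The order of the 10 genes was compared per kilobase of all annotated exon bases, since longer genes collect more reads. In control SW480 cells MYC led at 182 CPM per kb, followed by RNF43 at 19.1, ZNRF3 at 4.98, TCF7 at 3.95, NOTUM at 2.90, AXIN2 at 2.89 and NKD1 at 0.848 CPM per kb. The counting intervals of TCF7 and NOTUM, and of NOTUM and AXIN2, overlapped. In control SW620 cells MYC was at 154, NOTUM at 141, NKD1 at 138, AXIN2 at 48.0, ASCL2 at 32.5, ZNRF3 at 21.9, RNF43 at 13.5, LGR5 at 12.0, TCF7 at 5.23 and LEF1 at 2.22 CPM per kb. NOTUM and NKD1, and RNF43 and LGR5, did not differ beyond their counting intervals there. ZNRF3 was thus below RNF43 in SW480 and above it in SW620. Summed over the 10 genes, the level was 804 and 767 CPM in SW480 and 3978 and 3831 CPM in SW620, control first. Most of each control sum was 1 gene, MYC at 547 CPM in SW480 and NKD1 at 2399 CPM in SW620. The sums therefore do not describe the 10 genes as a set.

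**Figure D2:**
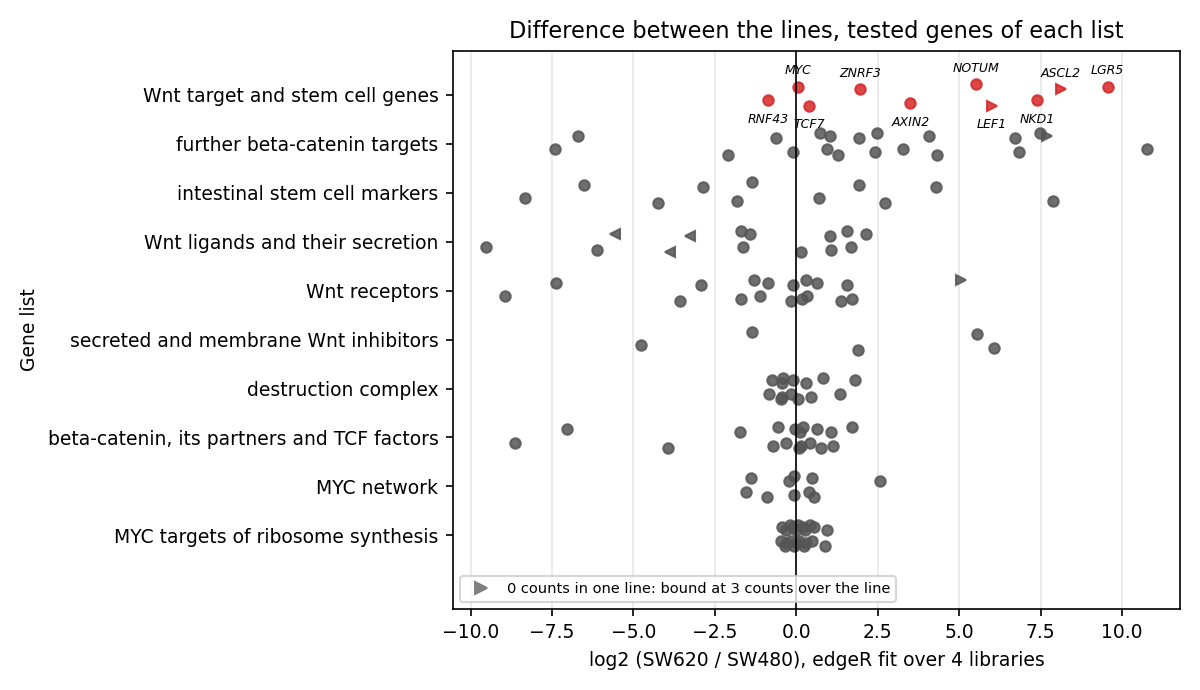
Log2 difference between SW620 and SW480 from the fit over 4 libraries, 1 point per tested gene and 1 row per gene list, with triangles at the bound for genes at 0 counts in one line. Of the Wnt target and stem cell genes, RNF43 lies lowest at -0.86 and LGR5 is drawn highest at 9.56, while ASCL2 and LEF1 are drawn at their lower bounds. The row named destruction complex, which also holds regulators of the complex, stays between -0.83 and 1.82.

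The second comparison asked whether SHMT2 knockdown changed these genes over both lines. No call was made. At an adjusted p under 0.05 by edgeR, 0 of the 10 genes were called, against 1.66% of all tested genes (69 higher and 164 lower). Before adjustment, the usual 5% limit on the P value was passed by 0 of the 10 and by 9.06% of all tested genes. DESeq2 gave an adjusted p for 5 of the 10 (AXIN2, NKD1, RNF43, NOTUM and MYC) and called 0 of them. Its own filter left none for LGR5, ASCL2, ZNRF3, TCF7 and LEF1. The largest rises were those of AXIN2, with a log2 change of 0.24 (SE 0.13, adjusted p = 0.617 by edgeR), and RNF43, with 0.20 (SE 0.12, adjusted p = 0.684). The largest falls were LGR5 at -0.37 (SE 0.21, adjusted p = 0.642 by edgeR) and ASCL2 at -0.31 (SE 0.21, adjusted p = 0.77), and both rest on SW620 alone. For NKD1, ZNRF3, NOTUM, MYC, TCF7 and LEF1 the log2 changes lay between -0.11 and -0.02. The 95% interval of the log2 change was -0.02 to 0.49 for AXIN2, -0.32 to 0.10 for NKD1, -0.33 to 0.19 for NOTUM and -0.25 to 0.15 for MYC. Such intervals use a spread pooled over genes and can be narrower than a gene's own disagreement between the lines. AXIN2, at 0.91 in SW480 and -0.16 in SW620, lay outside its interval in each line. So did MYC, at -0.34 and 0.24. The interval was wider for LGR5, -0.78 to 0.04, and for LEF1, -0.76 to 0.71, where counts were lower. The median over the 10 genes was -0.06, beside 0.01 for all tested genes.

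Within each line the change was a ratio of 2 libraries, with no replicate and no test. Its 95% interval covers counting error only, and the fit placed a further coefficient of variation of 9.05% on the libraries. In SW620, 7 of the 10 genes were below control by more than counting error (AXIN2, NKD1, NOTUM, RNF43, ZNRF3, LGR5 and ASCL2) and MYC was above. The background was 12.2% of tested genes below and 13.4% above. Past counting error in either direction were 8 of the 10 in SW620, against 25.6% of tested genes, and 3 of the 10 in SW480, against 29.9%. LGR5, ASCL2 and LEF1 had at most 1 count in a SW480 library and could not pass there, which left 7 genes. Passing also depends on the number of counts. NKD1 passed in SW620 at 95.4% of control, with 13086 and 30783 counts. The numbers passing in the 2 lines are therefore not comparable with each other or with the shares of all genes. In SW480, AXIN2 and RNF43 were above control and MYC below.

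The shifts in SW620 were small. LGR5 was at 77.9% of control (log2 -0.36, 95% counting interval -0.55 to -0.17) and ASCL2 at 80.5% (log2 -0.31, interval -0.51 to -0.12). ZNRF3 stood at 87.0%, AXIN2 at 89.4%, RNF43 at 89.8%, NOTUM at 92.6%, TCF7 at 93.1%, NKD1 at 95.4% and LEF1 at 98.6% of control. In all, 9 of the 10 were lower than in the control library, which was the shallower of the pair, beside 51.0% of all tested genes. The SW620 intervals of TCF7 and LEF1 covered no change. Whether the genes moved as a set was not tested. In SW480, NKD1 was at 86.7%, TCF7 at 95.6%, NOTUM at 103% and ZNRF3 at 112% of control, and each of these intervals covered no change.

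AXIN2, RNF43 and MYC were past counting error in both lines and in opposite directions. AXIN2 was at 188% of control in SW480 (log2 0.91, interval 0.59 to 1.23) and at 89.4% in SW620 (log2 -0.16, interval -0.25 to -0.07). RNF43 was at 145% in SW480 (log2 0.54, interval 0.43 to 0.64) and at 89.8% in SW620 (log2 -0.16, interval -0.30 to -0.01). MYC was at 79.0% in SW480 (log2 -0.34, interval -0.41 to -0.27) and at 118% in SW620 (log2 0.24, interval 0.17 to 0.30). Of all tested genes, 3.73% were past counting error in opposite directions and 7.30% in the same direction. With 1 library per line and condition, a difference in response between the lines cannot be tested.

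**Figure D3:**
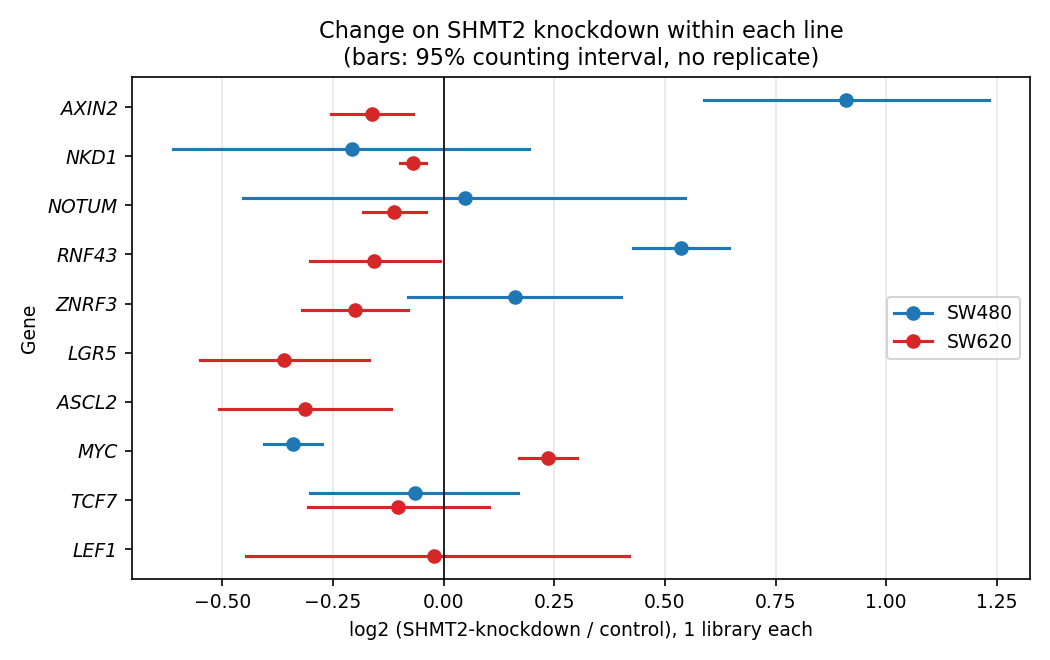
Log2 ratio of SHMT2-knockdown to control within SW480 (blue) and SW620 (red) for each gene, with the 95% counting interval as a bar and no replicate. AXIN2 and RNF43 lie at 0.91 and 0.54 in SW480 and at -0.16 in SW620, while MYC lies at -0.34 and 0.24. LGR5, ASCL2 and LEF1 have no SW480 point because at least 1 SW480 library held 0 counts.

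Genes that MYC is known to activate were followed beside MYC, in a list named ribosome synthesis after most of its members. The list also holds ODC1 and CAD, which act in polyamine and pyrimidine synthesis. Over both lines, 0 of the 22 genes of this list passed in either direction (1.66% of all tested genes passed). Within the lines the list leaned the way MYC did. In SW480, 19 of the 22 were lower than in the control, with a median log2 change of -0.19, and 47.5% of all tested genes were lower, with a median of 0.02. In SW620, 18 of the 22 were higher, with a median of 0.10, and 49.0% of all tested genes were higher, with a median of -0.01. NCL, the nucleolar protein nucleolin, was at -0.22 in SW480 and 0.14 in SW620 on the log2 scale. FBL, the methyltransferase fibrillarin, was at -0.24 and 0.18, and NPM1, nucleophosmin, at -0.20 and 0.19. ODC1, the first enzyme of polyamine synthesis, was above control in both lines, at 0.12 and 0.26. GAR1, of the box H/ACA complex, was below control in both, at -0.42 and -0.13. These are ratios of single libraries, and the genes are not independent of each other.

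**Figure D4:**
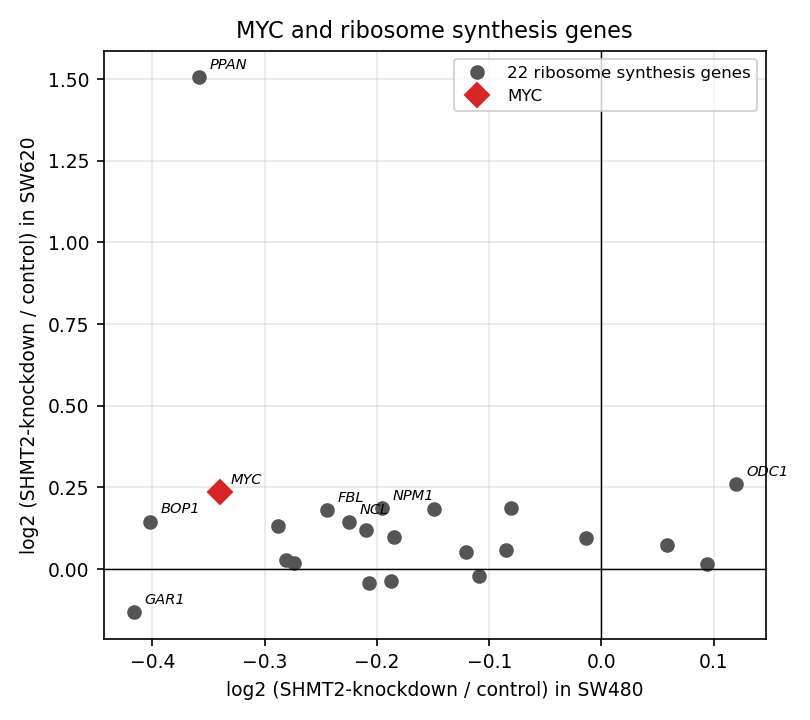
Log2 ratio of SHMT2-knockdown to control in SW480 (horizontal) against SW620 (vertical), on axes of different scale. There is 1 point each for MYC (diamond) and the 22 genes of the ribosome synthesis list, which includes ODC1 and CAD. Of the 22, 19 lie left of 0 and 18 lie above 0, and MYC lies at -0.34 and 0.24. PPAN, at 1.51 in SW620, rests on few counts.

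The rest of the pathway was read from lists of its parts. Of 20 tested further β-catenin targets, 1 was called on knockdown, beside 1.66% of all tested genes. CCND1, cyclin D1, had 9102 and 2314 counts in SW480 and 1184 and 1129 in SW620, or 948 and 349 CPM and 217 and 83.9 CPM. It fell by 1.41 on the log2 scale (SE 0.11, adjusted p = 2.90e-36 by edgeR), and it is a gene the study tested by name. Between the lines, 15 of the 20 were higher in SW620 and 4 lower. Of the 15, APCDD1, PROX1, LGR6, TDGF1 and ZBTB7C passed the filter through SW620 alone. Among the 15 genes of the list that had at least 10 counts in a library of each line, 10 were higher and 4 lower, beside 31.2% and 28.2% of all such genes. APCDD1, a membrane inhibitor of Wnt ligands, had 0 counts in SW480 and 132 and 591 in SW620, at least 207-fold higher. PROX1, a homeobox factor, had 1 and 2 counts against 2038 and 4130 (log2 10.76). CD44 and DKK1 were lower in SW620, by log2 differences of -7.40 and -6.72. CD44, the hyaluronan receptor, had 1107 and 1339 CPM in SW480 and 5.32 and 8.77 CPM in SW620.

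Of 11 tested intestinal stem cell markers, 5 were higher and 6 lower in SW620, beside 32.3% and 31.3% of all tested genes. On knockdown 0 were called, beside 1.66% of all tested genes. SMOC2 passed the filter through SW620 alone, and MSI1 and FSTL1 through SW480 alone. SMOC2, a matrix protein of crypt base cells, was at 0.208 and 0.151 CPM in SW480 and at 52.8 and 39.5 CPM in SW620 (log2 7.90). LRIG1, which restrains ErbB receptors, was at 3.85 and 3.02 CPM against 73.2 and 61.0 CPM (log2 4.28). MSI1, the RNA-binding protein Musashi, and FSTL1 were lower in SW620, at -6.53 and -8.34. The stem cell genes with the LGR5 and ASCL2 pattern were therefore only a part of the list.

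In the lists of Wnt ligands and of receptors, 0 genes were called on knockdown, beside 1.66% of all tested genes. Of 14 tested genes of Wnt ligands and their secretion, 4 were higher and 8 lower in SW620, beside 32.3% and 31.3% of all tested genes. WNT3A, WNT9A, WNT16 and RSPO4 passed the filter through SW480 alone, and of the other 10 genes 4 were higher and 4 lower. WNT16 had 147 and 120 CPM in SW480 and 0.183 and 0.149 CPM in SW620 (log2 -9.53). WNT9A had 90 and 32 counts in SW480 and 0 in SW620, at least 47.4-fold higher in SW480. WNT11 (log2 2.14) and WNT6 (log2 1.67) were higher in SW620 at low levels. The receptor list also holds the Dishevelled genes DVL1, DVL2 and DVL3, which do not encode receptors. Of its 18 tested genes, 6 were higher and 8 lower, beside 32.3% and 31.3% of all tested genes. FZD9 and FZD10 passed the filter through SW620 alone, and FZD7 and ROR2 through SW480 alone. ROR2 and FZD7 had 0 to 2 counts in SW620, at log2 differences of -8.96 and -7.38. FZD10 was at 0 in SW480 and had 28 and 88 counts in SW620, at least 33.2-fold higher, and FZD9 was higher by 1.72.

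Among the other inhibitors, 1 of 5 tested genes was called on knockdown, beside 1.66% of all tested genes. SFRP5, a secreted decoy for Wnt ligands, had 3 and 1 counts in SW480 and 90 and 81 in SW620, or 16.5 and 6.02 CPM. It fell by 1.43 on the log2 scale (SE 0.39, adjusted p = 0.0179 by edgeR), a call that rests on SW620 and was lost with a filter of 50 counts (adjusted p = 0.113). Between the lines SFRP5 (log2 5.54) and SOSTDC1 (log2 6.06), both past the filter through SW620 alone, were higher in SW620, and FRZB (log2 -4.77, past it through SW480 alone) and KREMEN2 (log2 -1.36) lower.

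In the list of the destruction complex, which also holds its regulators TNKS, TNKS2, USP7 and SIAH1, 1 of 14 tested genes was called on knockdown. Of all tested genes, 1.66% were. APC had 821 and 407 counts in SW480 (85.5 and 61.4 CPM) and 358 and 567 in SW620 (65.6 and 42.2 CPM), and was lower than its control in both lines. It fell by 0.56 on the log2 scale (SE 0.13, adjusted p = 0.0038 by edgeR). With a filter of 50 counts the adjusted p was 0.0636. The study's own list of changed genes from this experiment holds APC, so the fall is not independent evidence of its direction. Between the lines, 5 genes of this list were higher and 6 lower in SW620. Among all genes with at least 10 counts in a library of each line, 31.2% were higher and 28.2% lower. The log2 difference was under 1 in size for 12 of the 14, and for 76.1% of all genes with at least 10 counts in a library of each line. AMER1 and AXIN1 were higher (log2 1.82 and 1.33), and BTRC and APC2 lower (log2 -0.83 and -0.75).

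Of 18 tested genes of β-catenin, its partners and the TCF factors, 0 were called on knockdown, beside 1.66% of all tested genes. CTNNB1, which encodes β-catenin, had 470 and 529 CPM in SW480 and 743 and 793 CPM in SW620. Its log2 change on knockdown was 0.13 (SE 0.10, adjusted p = 0.816 by edgeR), and its difference between the lines was 0.62 (SE 0.10, adjusted p = 9.18e-10). TCF7L2 had a log2 change of 0.32 on knockdown (SE 0.12, unadjusted P = 0.00859 and adjusted p = 0.227 by edgeR). The corepressors TLE1 and TLE2, past the filter through SW480 alone, were lower in SW620 (log2 -8.64 and -7.03), and TLE3 and the β-catenin inhibitor CTNNBIP1 higher (log2 1.71 and 1.11).

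In the MYC network, MXD4 was the 1 gene called on knockdown of 10 tested, beside 1.66% of all tested genes. MXD4, a partner of MAX that represses MYC targets, had 307 and 421 counts in SW480 (32.0 and 63.5 CPM) and 199 and 584 in SW620 (36.5 and 43.4 CPM). It rose by 0.63 on the log2 scale (SE 0.14, adjusted p = 0.00148 by edgeR), was at 199% of control in SW480 and at 119% in SW620, and is on the study's list. With a filter of 50 counts its adjusted p was 0.141. Between the lines MXD1 and MAX were higher in SW620 (log2 2.57 and 0.53), and MYCL and MXI1 lower (log2 -1.55 and -1.40). Among the colon epithelium markers, CDH1, E-cadherin, rose by 0.45, and KRT8 and KRT18, the paired keratins of simple epithelium, each fell by 0.34 in log2 units (adjusted p = 0.021, 0.00406 and 0.00537 by edgeR). All 3 lost the call with DESeq2, where the adjusted p was 0.279, 0.212 and 0.468, and with a filter of 50 counts, where it was 0.103, 0.156 and 0.194. All 3 are on the study's list.

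The genes whose pattern lay nearest to AXIN2 were found by the Euclidean distance of centred log2 CPM over the 4 libraries. They were GUSBP2, SNTB1 and CD5, at distances of 0.175, 0.19 and 0.203. SNTB1, a syntrophin, had 17.0 and 26.4 CPM in SW480 and 258 and 230 CPM in SW620. GUSBP2 and CD5 had 0 and 1 counts in SW480 and 16 to 45 in SW620, so their likeness rests on few reads.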

How the data were processed

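RNA was extracted with Trizol, and Illumina TruSeq libraries were made from 1 ug of total RNA. The values are raw counts per symbol in 1 table, as deposited by the authors with no normalization. The submitters' processing notes name Bowtie 0.12.2 and hg18. The counting program, annotation and use of strand are not given in the sources used here. In 28 rows the symbol had become a date, and none of these is a gene described here. The study's methods name a microarray for this experiment, while its results and data statement call it RNA-seq. The values are whole-number counts.

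Groups came from the labels for cell line and treatment. A gene was tested if 2 or more libraries held 10 or more counts, which kept 14024. Counts were scaled by TMM and fitted by edgeR 4.0.16 in R 4.3.3 (quasi-likelihood test, two-sided, terms for cell line and treatment, Benjamini-Hochberg over all tested genes), with 1 residual degree of freedom. SE is the log2 change divided by the root of the F statistic, and 95% intervals of fitted changes come from the SE and the normal distribution. The 2 libraries of a line are paired by that line: after subtracting each condition's mean, the pair of SW480 libraries correlated at r = 0.961 over 14024 genes, which describes genes that are not independent. Ratios of 2 libraries carry exact conditional binomial 95% intervals, for counting error only, since reads without molecular identifiers are not independent molecules. DESeq2 1.42.0 and Python 3.11.15 were also used. The script was tested on simulated counts. Gene lengths and overlaps were read from GENCODE 29 (GRCh38), and the authors may have used another annotation.

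The genes and lists were chosen with earlier results of these data known. Named genes were SHMT2, the 10 genes, every listed gene called on knockdown, per list the 2 largest called differences between the lines in each direction, APC, CTNNB1, TCF7L2 and the 3 genes nearest to AXIN2. Alternatives were other size factors, no filter, a filter of 50 counts, DESeq2, libraries thinned to the smallest total, an unadjusted limit, models without a term, and each line alone.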

Additional observations from a re-analysis of the deposited data

Results flagged for a closer look

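AXIN2, RNF43 and MYC moved in opposite directions on SHMT2 knockdown in the 2 lines, and the difference was not tested, since each line had 1 library per condition. AXIN2 had a log2 ratio of knockdown to control of 0.91 in SW480 and -0.16 in SW620. RNF43 had 0.54 in SW480 and -0.16 in SW620. MYC had -0.34 in SW480 and 0.24 in SW620. The knockdown library was the shallower of the pair in SW480 and the deeper in SW620. When all 4 libraries were reduced to equal depth, AXIN2 was at 1.03 in SW480 and -0.16 in SW620. RNF43 was at 0.55 and -0.15, and MYC at -0.34 and 0.26, in the same order. Random removal of reads keeps each gene's share of its library on average. The ratios were thus bound to stay about as large, and a part of depth in them was not tested. The thinning within lines was chosen after seeing the data.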

How the results depend on the processing

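The count of Wnt target and stem cell genes called on knockdown was 0 under all 7 alternatives, but with DESeq2 LGR5, ASCL2, ZNRF3, TCF7 and LEF1 had no adjusted p and could not be called. The count called between the lines was 9 in every alternative but DESeq2, where it was 8 because TCF7 was lost (log2 0.36, adjusted p = 0.239), and the one restricted to genes with 10 counts in a library of each line, added after seeing the data, where it was 6 of 7. AXIN2, not called on knockdown, turned from 0.24 to -0.071 without the cell line term (adjusted p = 1.0). With 1 line left out, AXIN2 ran from -0.16 to 0.90, RNF43 from -0.16 to 0.54, MYC from -0.34 to 0.24, NOTUM from -0.11 to 0.05 and ZNRF3 from -0.20 to 0.16, and each of these turned direction without a test. Between the lines, MYC turned to -0.25 in the control libraries alone. SHMT2 lost its call without the cell line term (log2 -3.62, adjusted p = 1.0). Its value with each line left out ran from -3.85 to -3.15, with no test, since no residual degree of freedom was left. For the same reason, counts of calls could not be had with a line left out. Over all tested genes, 233 were called on knockdown, against 69 with a filter of 50 counts, 28 with DESeq2 and 0 without the cell line term. Between the lines 8926 were called, against 5506 with DESeq2. The alternatives for CCND1, SFRP5, APC, MXD4, CDH1, KRT8 and KRT18, and for the ribosome synthesis medians, were chosen after seeing the data. Of these, CCND1 kept its call under every alternative but the one without the cell line term, and CDH1, KRT8 and KRT18 lost it also with DESeq2 and a filter of 50 counts, and CDH1 with no filter (adjusted p = 0.0976). DESeq2's own filter left no adjusted p for APC, SFRP5 and MXD4. The median of the ribosome synthesis genes ran from -0.20 to -0.19 in SW480 and from 0.10 to 0.11 in SW620. The 3-count floors limit what can be said of LGR5, ASCL2 and LEF1 in SW480.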

Other observations

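DKK4, a secreted Wnt inhibitor and β-catenin target, was below the filter and is named after its values were seen. It had 3 and 1 counts in control and knockdown SW480 cells, 0 in control SW620 cells and 35 in knockdown SW620 cells. The level of 2.60 CPM in knockdown SW620 cells was at least 4.73-fold higher than 3 counts in the control library, where 3 counts were 0.55 CPM. With no filter on low counts, its log2 change over both lines was 2.42 (adjusted p = 0.381 by edgeR). APCDD1 had 24.2 CPM in control and 43.9 CPM in knockdown SW620 cells and 0 counts in SW480, a log2 change of 0.86 (SE 0.26, adjusted p = 0.0502 by edgeR) that did not pass.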
